A study of Mus musculus with 10 samples.

Results

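The Hox cluster genes of the mouse were described in bulk RNA-seq of whole embryonic kidneys collected at E13.5. The members were all entries of the deposited expression table whose symbol is Hox followed by a, b, c or d and a number, which gave 39 genes of 35663 entries. The 4 wild-type kidney libraries (C57/b6) were labelled wild type, which is taken here to mean that they lack the Foxd1-Cre allele. The 3 *Foxd1GC* control libraries carried Foxd1-Cre, an allele that places GFP and Cre at the *Foxd1* locus, so that Cre is made in stromal progenitors and 1 copy of *Foxd1* is lost. The 3 *Ntn1SPKO* libraries carried the same allele together with *Ntn1* floxed on both chromosomes (Ntn1c/c), which removes the secreted guidance cue Ntn1 from the *Foxd1* lineage. Controls and mutants therefore share the Foxd1-Cre allele, and wild-type kidneys lack it. According to the paper, all mice were kept on a mainly C57/b6 background, and the *Ntn1SPKO* crosses on a pure one. Values are FPKM, fragments per kilobase of transcript after scaling for library size. Median-of-ratios size factors were 1 in every library, so scaling to the mapped fragments alone is not assumed. The sources used here do not say whether kidneys were pooled or which embryos were littermates, so p-values measure the spread between libraries, which may be partly technical.

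Hox genes encode homeodomain transcription factors that give cells their position along the body axis. In the mouse they lie in the clusters HoxA, HoxB, HoxC and HoxD, which arose by duplication, and genes at the same place in different clusters form a paralog group and often act redundantly. Genes at the 3′ end of a cluster (low numbers) are switched on early and far towards the head, and those at the 5′ end (high numbers) later and nearer the tail. In the kidney the Hox11 paralogs act with *Eya1* and *Pax2* to turn on *Six2* and *Gdnf* in the metanephric mesenchyme and so to induce the ureteric bud, and Hox10 paralogs act in the renal stroma.

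In the GENCODE M21 annotation of GRCm38, HoxA covers chr6:52155590-52260880 on the minus strand (11 genes). HoxB covers chr11:96194316-96368256 (10 genes), HoxC chr15:102921103-103036852 (9 genes) and HoxD chr2:74668310-74765142 (9 genes), all on the plus strand. All 39 members were found in this annotation by symbol.

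The check of the targeted gene and of the tissue came first. *Ntn1* was at 27.1 to 46.3 FPKM in wild-type, 24.2 to 51.4 FPKM in *Foxd1GC* control and 10.7 to 16.3 FPKM in *Ntn1SPKO* libraries, and the *Ntn1SPKO* libraries lay below all others. Summed FPKM was 795829 to 874966 per library except for wild-type replicate 3, at 1002638. Markers of nephron progenitors (*Six2*, 63.1 to 96.4 FPKM), ureteric bud (*Ret*, 4.09 to 20.9 FPKM) and stroma (*Foxd1*, 14.2 to 30.7 FPKM) were present in every library, whereas all 4 adrenal and gonad markers were under 0.5 FPKM in every library. The 4 liver markers, summed, were at 5.2 to 18.3 FPKM in wild-type, 9.76 to 27.1 FPKM in control and 2.53 to 11.9 FPKM in mutant libraries. Of these markers 3 were lower in mutants than in controls at an unadjusted p under 0.05 (all genes 10.7% in either direction), with 0 called. Their part in the Hox values was not tested. Y-linked transcripts were present in all 3 *Ntn1SPKO* libraries but in 1 of 3 *Foxd1GC* control and 1 of 4 wild-type libraries, so embryo sex is not balanced between the groups.

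Most Hox genes were expressed in the E13.5 kidney, with the largest share of the summed level in groups 9 to 11 and the 5′ ends of all clusters low. In wild-type kidneys 13 of the 39 genes had a mean over 20 FPKM, 13 had 5 to 20 FPKM, 8 had 0.5 to 5 FPKM and 5 were under 0.5 FPKM. FPKM is a level per length, so levels of different genes can be set beside each other. HoxB had 5 of its 10 genes over 20 FPKM, HoxD 4 of 9, HoxA 3 of 11 and HoxC 1 of 9. The highest member of each cluster in wild-type kidneys was *Hoxa10* at 88.9 ± 4.77 FPKM (mean ± SD, n = 4), *Hoxc10* at 62.2 ± 3.21 FPKM, *Hoxd11* at 55.3 ± 1.69 FPKM and *Hoxb7* at 31.2 ± 3.43 FPKM. In HoxB the neighbours *Hoxb9* (30.6 ± 3.66 FPKM) and *Hoxb8* (30.2 ± 2.29 FPKM) did not differ from *Hoxb7* beyond their spread.

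**Figure D1:**
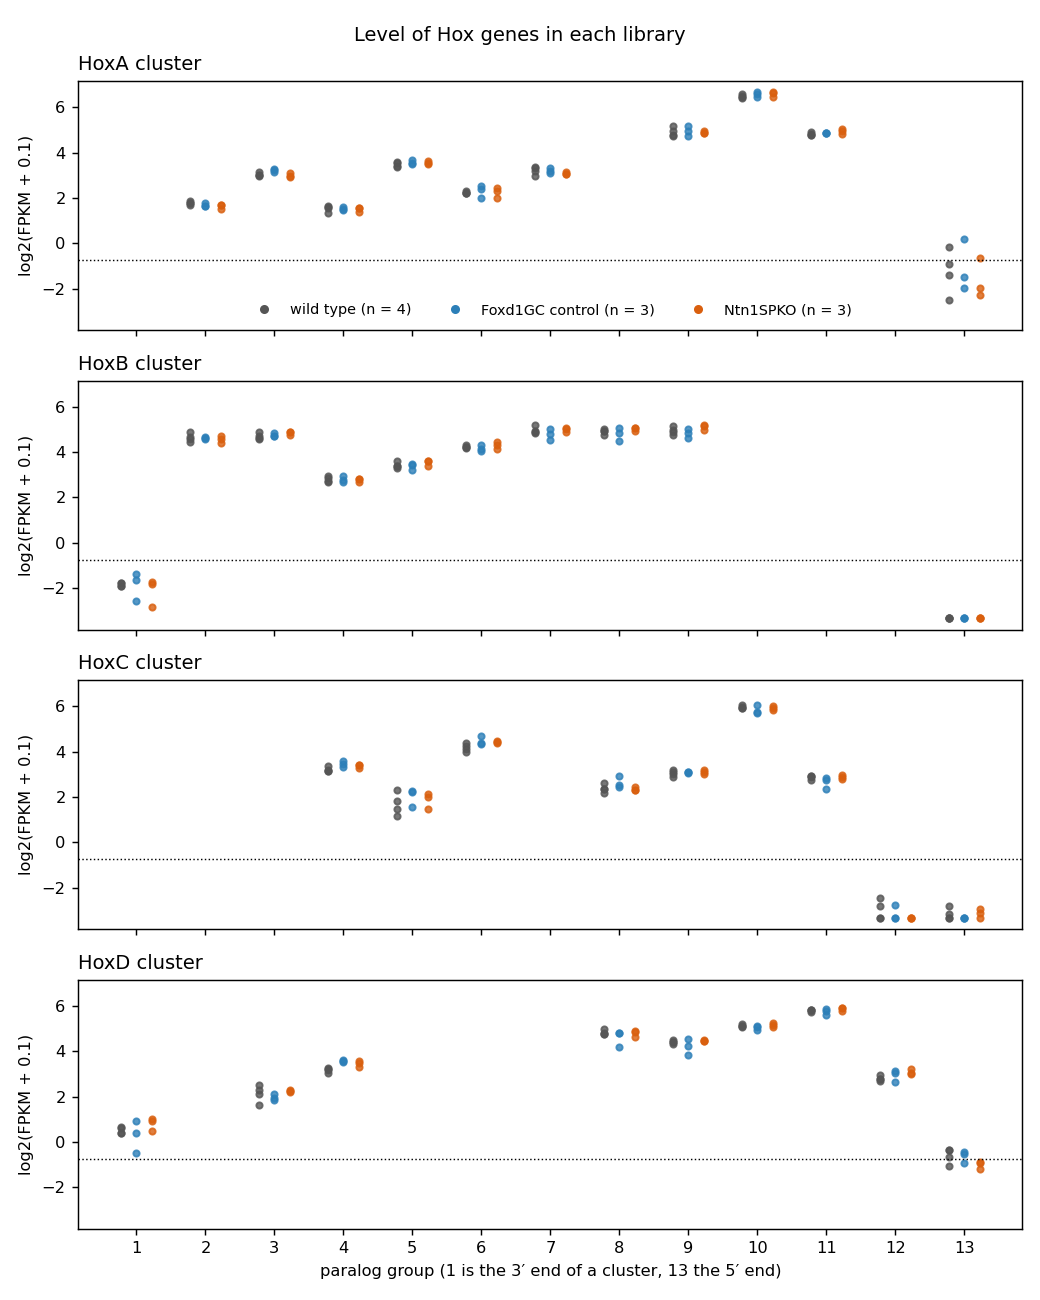
Level of 38 Hox genes in each of the 10 libraries, on a log2(FPKM + 0.1) scale, against paralog group in each cluster; points are libraries, coloured by group, and the dotted line marks 0.5 FPKM. In HoxA, HoxC and HoxD the levels peak at group 10 or 11 and fall by group 13, and the 3 groups of libraries lie on top of each other for most genes.

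Paralog group 10 carried the largest part of the Hox signal. *Hoxa10* (ENSMUSG00000000938.11) was the highest Hox gene in every library. Its values were 84.7, 86.6, 95.7 and 88.7 FPKM in wild-type replicates 1 to 4, 86.8, 95.9 and 100.2 FPKM in *Foxd1GC* control replicates 1 to 3, and 99.6, 100 and 87.9 FPKM in *Ntn1SPKO* replicates 1 to 3. The groups overlapped, and the highest library was 1.18 times the lowest. *Hoxc10* (ENSMUSG00000022484.7) ranged from 52.1 to 66.9 FPKM and *Hoxd10* from 30.8 to 38.0 FPKM over the 10 libraries. The order *Hoxa10* over *Hoxc10* over *Hoxd10* held in 10 of 10 libraries, with *Hoxa10* 1.33 to 1.78 times *Hoxc10*. Together the 3 genes made 27.8% to 31.3% of the summed FPKM of all Hox genes.

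Group 11, the paralogs that act with *Eya1* and *Pax2* in the induction of the ureteric bud, was led by *Hoxd11* (ENSMUSG00000042499.13). *Hoxd11* was at 52.8, 55.9, 56.2 and 56.3 FPKM in wild-type, 54.0, 57.1 and 48.7 FPKM in *Foxd1GC* control and 58.8, 59.0 and 54.3 FPKM in *Ntn1SPKO* replicates, so the mutants overlapped both other groups. *Hoxa11* ranged from 26.9 to 32.3 FPKM and *Hoxc11* from 5.07 to 7.84 FPKM. The order *Hoxd11* over *Hoxa11* over *Hoxc11* held in 10 of 10 libraries, and *Hoxd11* was 7.11 to 9.60 times *Hoxc11*. *Hoxc10* and *Hoxd11*, neighbours in the order of all members, were closer, with *Hoxc10* higher in 8 of 10 libraries.

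Group 9 was more even. *Hoxb9* ranged from 24.2 to 36.7 FPKM, *Hoxa9* from 26.1 to 35.9 FPKM, *Hoxd9* from 14.1 to 23.3 FPKM and *Hoxc9* from 7.25 to 9.12 FPKM. *Hoxb9* was above *Hoxa9* in 6 of 10 libraries, so these paralogs could not be ordered, whereas both were above *Hoxd9*, and *Hoxd9* above *Hoxc9*, in 10 of 10. Group 9 made 13.1% to 14.8% and group 11 13.1% to 14.4% of the summed Hox FPKM. Groups 9 to 11, which are 10 of the 39 genes, made 55.5% to 58.0% of it in every library, and the 15 genes of groups 1 to 5 made 18.2% to 20.6%.

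**Figure D2:**
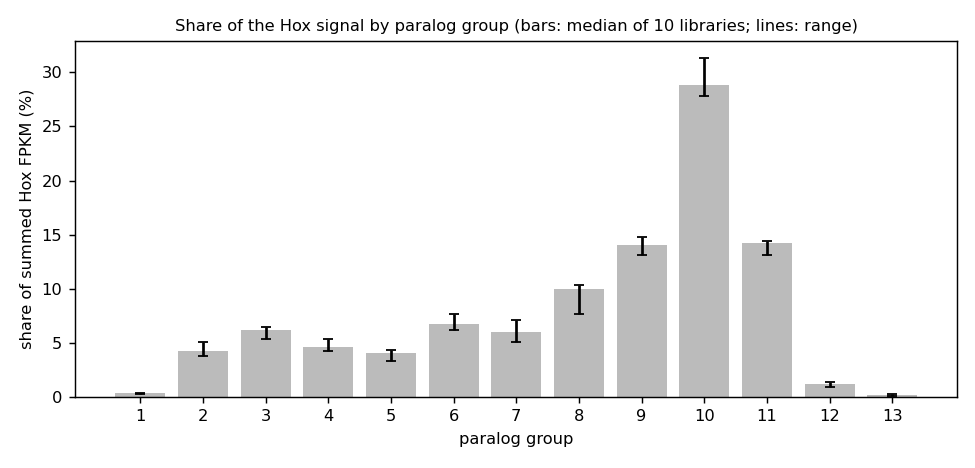
Share of the summed FPKM of all 39 Hox genes that each paralog group carries, in percent; bars are medians of the 10 libraries and lines span the lowest to the highest library. Group 10 stands at 27.8% to 31.3%, and group 13 at 0.0695% to 0.27%.

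In groups 2, 3 and 7 the HoxB gene led. *Hoxb2* was 7 to 8.37 times *Hoxa2*, *Hoxb3* 2.70 to 3.93 times *Hoxa3* and *Hoxb7* 2.52 to 3.92 times *Hoxa7*, each in 10 of 10 libraries. *Hoxb8* was above *Hoxd8* in 9 of 10 libraries and above *Hoxc8* in 10 of 10. Several pairs could not be separated. *Hoxd4* was above *Hoxc4* in 7 of 10 libraries, *Hoxc6* above *Hoxb6* in 8 of 10 and *Hoxa5* above *Hoxb5* in 8 of 10. In group 1 *Hoxd1* was low, at 0.611 to 1.91 FPKM.

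The middle and 3′ genes filled the bands below. *Hoxb3* ranged from 23.4 to 29.4 FPKM and *Hoxb2*, which acts in the hindbrain with *Hoxa2*, from 21.3 to 29.7 FPKM. *Hoxb6* ranged from 16.6 to 21.4 FPKM, *Hoxa5* from 10.2 to 12.6 FPKM and *Hoxc4* from 8.86 to 12 FPKM. These genes had a highest library of 1.24 to 1.39 times the lowest. *Hoxa4* at 2.44 to 3.04 FPKM, *Hoxa6* at 3.9 to 5.58 FPKM and *Hoxc5* at 2.12 to 4.84 FPKM were the weakest members of their paralog groups.

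At the 5′ end of HoxA, HoxC and HoxD the level dropped sharply between neighbouring genes. *Hoxa11* was 27.4 to 346 times *Hoxa13*, its next neighbour in HoxA. In HoxD the level fell in steps, with *Hoxd11* 5.61 to 9.22 times *Hoxd12* and *Hoxd12* 9.12 to 24.7 times *Hoxd13*. In HoxC, *Hoxc10* was 7.68 to 13 times *Hoxc11*. *Hoxd12* kept an intermediate level of 6.20 to 9.12 FPKM, and *Hoxd13* was at 0.332 to 0.692 FPKM. *Hoxb13* was listed at 0 in all 10 libraries, *Hoxc12* reached at most 0.083 FPKM and *Hoxc13* at most 0.044 FPKM. *Hoxb1*, a 3′ gene used in the hindbrain, was at 0.0409 to 0.289 FPKM. *Hoxa13*, which patterns the hindgut, the genital tubercle and the distal limb, had the largest ratio between libraries of the genes above 0 in all 10, from 0.08 FPKM in wild-type replicate 4 to 1.04 FPKM in *Foxd1GC* control replicate 1, a ratio of 13. Groups 12 and 13 together made 1.07% to 1.56% of the summed Hox FPKM.

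The sequences before the start sites of these genes are shown because the level drops between them, directly in HoxA and through *Hoxd12* in HoxD. RefSeq start windows (GRCm38.p6) were given for 22 of the 39 genes, and the 250 bases before the start are printed 5′ to 3′ on the strand of the gene, with each CG dinucleotide in capitals. They are chr6:52245811-52246060 (minus strand) for *Hoxa11*, chr6:52260881-52261130 (minus strand) for *Hoxa13*, chr2:74679308-74679557 (plus strand) for *Hoxd11* and chr2:74667975-74668224 (plus strand) for *Hoxd13*. Of the 2 windows given for *Hoxd11*, the one nearer to the 5′ end of the gene in GENCODE is shown.
Hoxa11: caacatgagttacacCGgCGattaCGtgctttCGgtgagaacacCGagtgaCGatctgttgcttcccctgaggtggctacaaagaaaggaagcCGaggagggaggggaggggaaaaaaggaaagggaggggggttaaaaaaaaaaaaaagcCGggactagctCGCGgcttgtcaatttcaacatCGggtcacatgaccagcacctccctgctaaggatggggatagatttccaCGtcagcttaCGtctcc
Hoxa13: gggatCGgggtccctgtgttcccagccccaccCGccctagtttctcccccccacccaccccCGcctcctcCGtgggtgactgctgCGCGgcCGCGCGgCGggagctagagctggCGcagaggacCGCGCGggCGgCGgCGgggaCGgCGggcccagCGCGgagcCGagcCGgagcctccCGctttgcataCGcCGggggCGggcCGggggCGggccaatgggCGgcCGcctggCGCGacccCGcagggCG
Hoxd11: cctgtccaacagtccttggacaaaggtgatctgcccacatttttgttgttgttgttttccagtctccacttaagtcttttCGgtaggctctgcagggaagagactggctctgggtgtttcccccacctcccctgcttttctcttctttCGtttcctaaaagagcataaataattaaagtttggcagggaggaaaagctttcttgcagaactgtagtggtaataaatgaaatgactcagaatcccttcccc
Hoxd13: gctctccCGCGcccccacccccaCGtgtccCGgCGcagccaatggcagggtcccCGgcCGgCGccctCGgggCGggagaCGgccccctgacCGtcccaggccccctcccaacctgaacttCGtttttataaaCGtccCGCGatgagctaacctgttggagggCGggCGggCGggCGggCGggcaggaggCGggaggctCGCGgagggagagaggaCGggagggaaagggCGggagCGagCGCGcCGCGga
*Hoxa13* had 35 CG and *Hoxd13* 31 CG, while *Hoxa11* had 13 CG and *Hoxd11* 2 CG. *Hoxb1*, also low, had 7 CG, and *Hoxd12* had 10 CG. All 24 Hox windows had a median of 12.5 CG and a range of 2 to 35, and all 32851 windows of the table had a median of 6. A second *Hoxd11* window had 20 CG. The motif TGATNNAT, which Hox proteins bind together with their Pbx cofactors, was searched on both strands and was found in 4 of the 24 Hox windows (16.7%) and in 7.68% of all windows, and in none of those printed. A match describes letters only and is not a bound site.

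Hox levels varied little between libraries. The SD between wild-type libraries on the log2(FPKM + 0.1) scale had a median of 0.114 over the 34 Hox genes with a group mean of 0.5 FPKM or more, beside 0.178 over 14458 genes at that level. The medians were 0.143 over 34 Hox genes and 0.169 over 14644 genes in *Foxd1GC* control libraries, and 0.102 over 33 and 0.106 over 14341 in *Ntn1SPKO* libraries. Over all 10 libraries, the highest value was under 1.5 times the lowest for 21 of 34 Hox genes (61.8%), and the same held for 46.2% of all genes at this level. The summed FPKM of the Hox genes was 641 ± 24.0 (SD, n = 4) in wild-type, 635 ± 21.8 (n = 3) in *Foxd1GC* control and 667 ± 29.6 (n = 3) in *Ntn1SPKO* kidneys.

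*Foxd1GC* control replicate 3 held many extreme values, of Hox genes and of all genes alike. Wild-type replicate 1 held more of the lowest Hox values than its share over all genes. *Foxd1GC* control replicate 3 was the lowest of the 10 libraries for 11 of 34 Hox genes (32.4%, all genes 24.1%) and the highest for 9 (26.5%, all genes 20.7%). It was lowest for *Hoxb5* to *Hoxb9*, *Hoxc11*, *Hoxd1*, *Hoxd8*, *Hoxd9*, *Hoxd10* and *Hoxd11*, and the genes it was highest for included *Hoxa5*, *Hoxa6*, *Hoxa9*, *Hoxa10*, *Hoxc4*, *Hoxc6*, *Hoxc8* and *Hoxd4*. Wild-type replicate 1 was the lowest for 9 of 34 Hox genes (26.5%, all genes 9.47%), namely *Hoxa4*, *Hoxa7*, *Hoxa10*, *Hoxa11*, *Hoxb3*, *Hoxc4*, *Hoxc6*, *Hoxc9* and *Hoxd4*, and the highest for 2 (5.88%, all genes 6.24%). By cluster, in the control library 5 HoxA genes were above and 0 below the other 9 libraries, 0 HoxB genes above and 5 below, 3 HoxC genes above and 1 below, and 1 HoxD gene above and 5 below. Of all genes, 20.7% were above and 24.1% below there. *Hoxd8* was at 17.8 FPKM in the control library and at 24.7 to 31.3 FPKM in the other 9 libraries. *Hoxd9* was at 14.1 FPKM beside 18.8 to 23.3 FPKM, and *Hoxd1* at 0.611 FPKM beside 1.21 to 1.91 FPKM.

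In *Foxd1GC* control replicate 3, 4 of 5 ureteric bud markers were the lowest of all libraries and 0 the highest. *Ret*, the receptor at the bud tip, was at 4.09 FPKM beside 14.1 to 20.9 FPKM, *Gata3* at 9.10 FPKM beside 29.5 to 45.4 FPKM and *Calb1* at 16.4 FPKM beside 57.4 to 74.9 FPKM, and the summed level of the list was 51.8 FPKM beside 130 to 161 FPKM. *Wnt11* was the marker within the range. All 8 skeletal muscle markers and all 5 limb and body wall markers were highest there, with summed levels of 317 FPKM beside 13.1 to 81.9 FPKM and of 64.4 FPKM beside 19.5 to 38.6 FPKM. Of the 5 nephron progenitor markers 4 were highest there, with a summed level of 326 FPKM beside 209 to 286 FPKM. The muscle list was also higher in wild-type (41.5 to 81.9 FPKM) than in *Ntn1SPKO* libraries (13.1 to 29.3 FPKM). The part of these other cells in the Hox values was not tested. In whole kidneys, fewer cells of a type and less RNA per cell cannot be told apart.

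**Figure D3:**
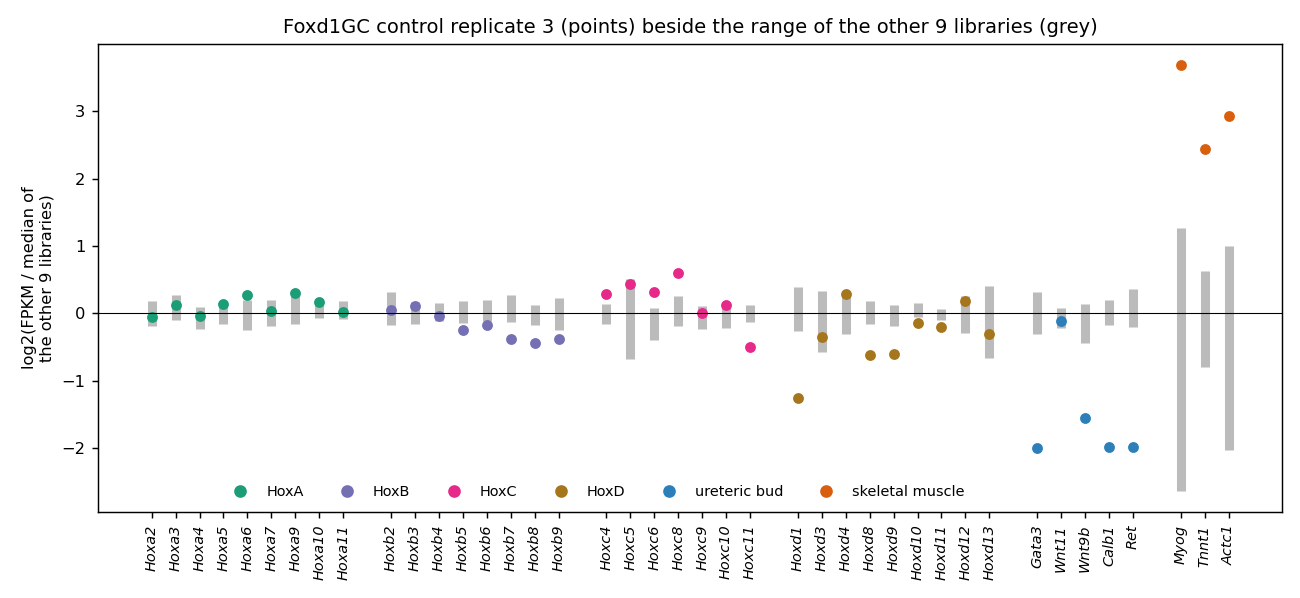
Level in *Foxd1GC* control replicate 3 (points) relative to the median of the other 9 libraries, on a log2 scale, with the range of those 9 libraries in grey, for 33 Hox genes at 0.5 FPKM or more and for ureteric bud and skeletal muscle markers. *Hoxb5* to *Hoxb9* and *Hoxd8* to *Hoxd11* lie below the grey range, as do *Ret*, *Gata3*, *Calb1* and *Wnt9b*, while the muscle markers lie far above it.

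The comparison of *Ntn1SPKO* with *Foxd1GC* control kidneys asks what the loss of stromal *Ntn1* changes. No Hox gene was called, and most differences were small. Of the 39 genes, 33 reached the tested level of a mean of 0.5 FPKM over the 6 libraries, and *Hoxa13*, *Hoxb1*, *Hoxb13*, *Hoxc12*, *Hoxc13* and *Hoxd13* did not. The test was limma on log2(FPKM + 0.1) with Benjamini-Hochberg adjustment over 14550 genes, and a call required a change of 2-fold or more and an adjusted p below 0.1. By this rule 0 of 33 were called (all genes 0.055%). The lowest adjusted p of a Hox gene was 0.447. The rule did not call the targeted gene *Ntn1* either, at −1.48 on the log2 scale (limma adjusted p = 0.447, exact permutation p = 0.1). The absence of calls therefore does not show that Hox levels were unchanged. At an unadjusted p under 0.05 there was 1 of 33 (3.03%, all genes 10.7%), and the groups did not overlap for 3 of 33 (9.09%, all genes 19.9%). The 95% interval of the fold change lay within 2-fold in either direction for 31 of 33 (93.9%, all genes 79.7%). *Hoxd1*, near the lower limit of the tested range, was among the exceptions, with an interval of −0.42 to 1.45.

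The gene with an unadjusted p under 0.05 was *Hoxa3*, a group 3 gene known for the patterning of the pharyngeal arches (ENSMUSG00000079560.13). It was at 8.53, 7.39 and 7.61 FPKM in *Ntn1SPKO*, 9.65, 9.37 and 8.66 FPKM in *Foxd1GC* control and 7.94, 7.93, 7.66 and 8.64 FPKM in wild-type replicates. The 3 mutants lay below the 3 controls and overlapped the wild-type libraries. The mutants were at −0.23 relative to controls on the log2 scale (SE 0.0939, limma p = 0.0457, adjusted p = 0.447, exact permutation p = 0.1, two-sided, the smallest that 3 against 3 allows). With embryo sex as a covariate the value was −0.26. All 3 mutants but only control replicate 2 carried Y-linked transcripts. Each sex-adjusted value against controls therefore sets the mutants against that library alone.

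The largest values in either direction did not reach that level. *Hoxd1*, at 1.77, 1.3 and 1.91 FPKM in *Ntn1SPKO* and 1.23, 1.79 and 0.611 FPKM in *Foxd1GC* control replicates, had a value of 0.52 (SE 0.389, limma adjusted p = 0.55, exact permutation p = 0.3). It was 0.13 without *Foxd1GC* control replicate 3. With embryo sex as a covariate, which leaves control replicate 2 alone beside the mutants, it was −0.12. *Hoxd3* was at 4.69, 4.47 and 4.81 FPKM in *Ntn1SPKO* and 3.73, 4.26 and 3.52 FPKM in *Foxd1GC* control replicates. Its groups did not overlap, and the log2 fold change was 0.28 (SE 0.115, limma adjusted p = 0.447, exact permutation p = 0.1), or 0.12 with embryo sex as a covariate. Wild-type libraries spanned both groups, from 3.02 to 5.64 FPKM. The coding sequence of *Hoxd3* is shared in full with *Gm28230*, an overlapping gene described below. *Gm28230* was at 3.07, 2.53 and 3.06 FPKM in *Ntn1SPKO* and 3.09, 3.41 and 2.13 FPKM in *Foxd1GC* control replicates. *Hoxd3* was not summed with it, so the lack of overlap holds for the *Hoxd3* entry alone. *Hoxc8* had −0.28 (limma adjusted p = 0.461, exact permutation p = 0.1) with no overlap of the groups and −0.13 without *Foxd1GC* control replicate 3, the control in which it was highest, at 7.53 FPKM.

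By cluster, the median log2 fold change was −0.05 for HoxA (10 tested genes), 0.14 for HoxB (8), −0.05 for HoxC (7) and 0.18 for HoxD (8), beside 0.01 for all genes tested. Values above 0 were found for 2 of 10 HoxA, 6 of 8 HoxB, 3 of 7 HoxC and 7 of 8 HoxD genes (all genes 51.2%). Without *Foxd1GC* control replicate 3 the medians were 0.00, 0.08, 0.04 and 0.07. They moved towards 0 in every cluster but HoxC, where the sign changed. With embryo sex as a covariate the medians were −0.01 for HoxA, −0.03 for HoxB, 0.06 for HoxC and 0.00 for HoxD. The HoxB and HoxC medians changed sign, but these values rest on control replicate 2 alone beside the mutants. The highly expressed genes of groups 9 to 11 ranged from −0.05 to 0.27. *Hoxa10* had a log2 fold change of 0.02 with a 95% interval of −0.17 to 0.22, *Hoxa11* 0.09 (−0.08 to 0.26) and *Hoxd11* 0.11 (−0.08 to 0.30). Without that control library 2 of 33 genes had an unadjusted p under 0.05 (6.06%, all genes 7.23%), namely *Hoxa3* and *Hoxc10* (0.18), both with a limma adjusted p of 0.673, and 5 of 33 did not overlap (15.2%, all genes 25.6%).

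**Figure D4:**
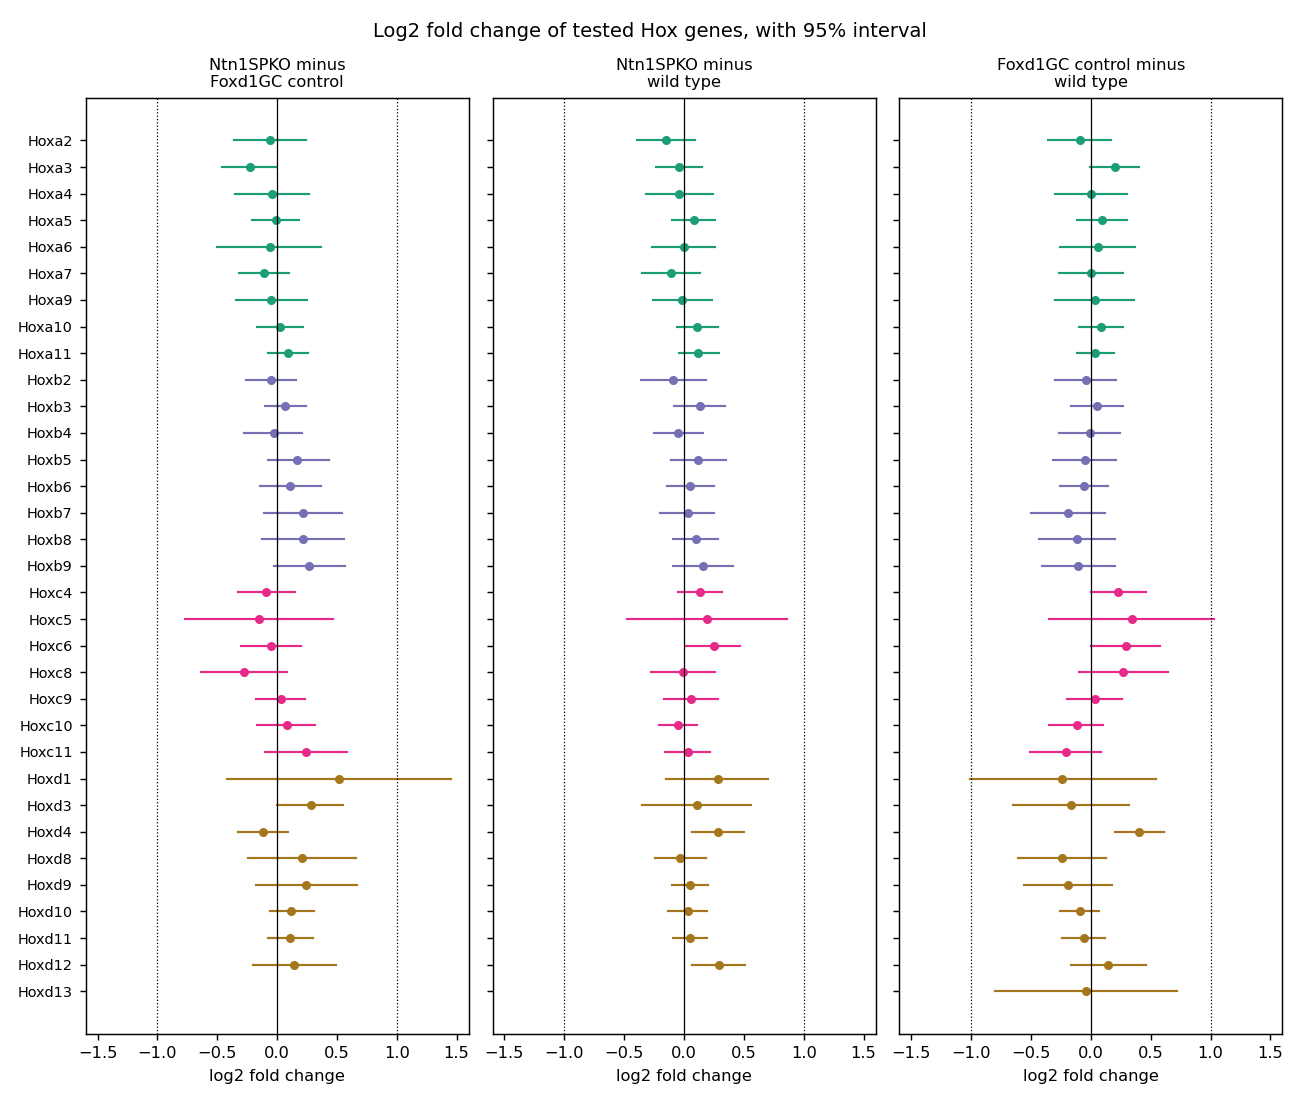
Log2 fold change (points) with its 95% interval (lines) for the tested Hox genes in the 3 comparisons, from limma on log2(FPKM + 0.1), coloured by cluster; dotted lines mark a 2-fold change in either direction. The intervals shown lie within the dotted lines except those of *Hoxd1* in the left panel and of *Hoxc5* and *Hoxd1* in the right panel.

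The wild-type libraries gave 2 more comparisons, which share libraries with the first and with each other, so their values are set side by side only. Between *Ntn1SPKO* and wild-type kidneys 0 of 33 Hox genes were called (all genes 0.0485%). Their lowest adjusted p was 0.686, and all 33 intervals lay within 2-fold (all genes 87.4%). *Ntn1* was not called here either, at −1.30 (limma adjusted p = 0.14, exact permutation p = 0.0286). At an unadjusted p under 0.05 there were 3 of 33, all higher in the mutants (9.09%, all genes 2.45% higher and 5.76% in either direction), and groups did not overlap for 2 of 33 (6.06%, all genes 7.10%). Between *Foxd1GC* control and wild-type kidneys 0 of 34 were called (all genes 0.00685%), with a lowest adjusted p of 0.665 and 32 of 34 intervals within 2-fold (94.1%, all genes 81.6%). At an unadjusted p under 0.05 there were 2 of 34, both higher in the controls (5.88%, all genes 3.84% higher and 7.06% in either direction), and groups did not overlap for 2 of 34 (5.88%, all genes 8.09%).

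*Hoxd4* had the lowest p of any Hox gene. It was lower in wild-type kidneys than in both groups with the Foxd1-Cre allele, but was not called. *Hoxd4* (ENSMUSG00000101174.8) is a group 4 gene known from the hindbrain and the cervical vertebrae. It was at 8, 9.51, 9.29 and 8.85 FPKM in wild-type, 11.4, 11.9 and 12.1 FPKM in *Foxd1GC* control and 9.86, 11.1 and 11.6 FPKM in *Ntn1SPKO* replicates. All 6 libraries with the Cre allele lay above all 4 wild-type libraries. This split was looked at after the values were seen, and the share of all genes that separate in this way was not computed. Against wild type, the log2 fold change was 0.40 in controls (SE 0.0893, limma p = 0.00218, adjusted p = 0.665, exact permutation p = 0.0286, the smallest that 3 against 4 allows). In mutants it was 0.28 (SE 0.0917, limma p = 0.0158, adjusted p = 0.686, exact permutation p = 0.0286). Between mutants and controls it was −0.12 (limma adjusted p = 0.541), and those groups overlapped. Erythroid markers, summed, were at 1457 to 2738 FPKM in wild-type, 2483 to 5887 FPKM in control and 1473 to 6082 FPKM in mutant libraries. All 5 markers were higher in controls than in wild type at an unadjusted p under 0.05 (all genes 3.84% higher). Their part in the *Hoxd4* difference was not tested.

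*Hoxd4* shares sequence with *Gm28230*, an annotated gene that overlaps exons of both *Hoxd3* and *Hoxd4* on the same strand. Its transcripts hold 82.5% of the 31-base words of the *Hoxd4* coding sequence and 100% of those of *Hoxd3*, so reads could be split between the entries. *Gm28230* was at 2.13 to 3.41 FPKM. Summed with it, *Hoxd4* was 0.35 higher on the log2 scale in controls (exact permutation p = 0.0286) and 0.26 in mutants (exact permutation p = 0.0571) than in wild-type kidneys. The RefSeq start of *Hoxd4* (GRCm38.p6) lies 10049 bases inside the longer gene that GENCODE annotates. The 250 bases before it, at chr2:74721728-74721977 on the plus strand, are shown as those of the member with the lowest p, with CG again in capitals (3 CG).
Hoxd4: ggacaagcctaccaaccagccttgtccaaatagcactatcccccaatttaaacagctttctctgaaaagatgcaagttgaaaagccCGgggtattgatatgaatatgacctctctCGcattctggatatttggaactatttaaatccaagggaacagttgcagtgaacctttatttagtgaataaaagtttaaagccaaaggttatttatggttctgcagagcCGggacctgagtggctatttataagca

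*Hoxd12* and *Hoxc6* completed the genes at an unadjusted p under 0.05. *Hoxd12*, at the 5′ end of HoxD, was at 9.12, 8.20 and 7.79 FPKM in *Ntn1SPKO*, 7.98, 6.20 and 8.68 FPKM in *Foxd1GC* control and 6.31, 6.78, 6.64 and 7.60 FPKM in wild-type replicates. The mutants lay above the wild-type libraries and overlapped the controls, which also overlapped the wild-type libraries. The log2 fold change against wild type was 0.29 (SE 0.0935, limma p = 0.016, adjusted p = 0.686, exact permutation p = 0.0571). *Hoxc6*, a trunk gene of group 6, was at 15.8, 18.6, 17.2 and 20.8 FPKM in wild-type, 20.7, 20.3 and 25.7 FPKM in *Foxd1GC* control and 22, 20.7 and 21.5 FPKM in *Ntn1SPKO* replicates. Wild-type replicate 4 overlapped both other groups. The log2 fold change against wild type was 0.29 in controls (limma p = 0.0473, adjusted p = 0.665, exact permutation p = 0.114). In mutants it was 0.25 (limma p = 0.0377, adjusted p = 0.813, exact permutation p = 0.0857). Without control replicate 3 the value in controls was 0.19 (limma adjusted p = 1). Without wild-type replicate 1 the *Hoxc6* values were 0.23 in controls and 0.18 in mutants, each with an unadjusted p above 0.05, and those of *Hoxd4* were 0.35 and 0.23, each with an unadjusted p under 0.05.

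**Figure D5:**
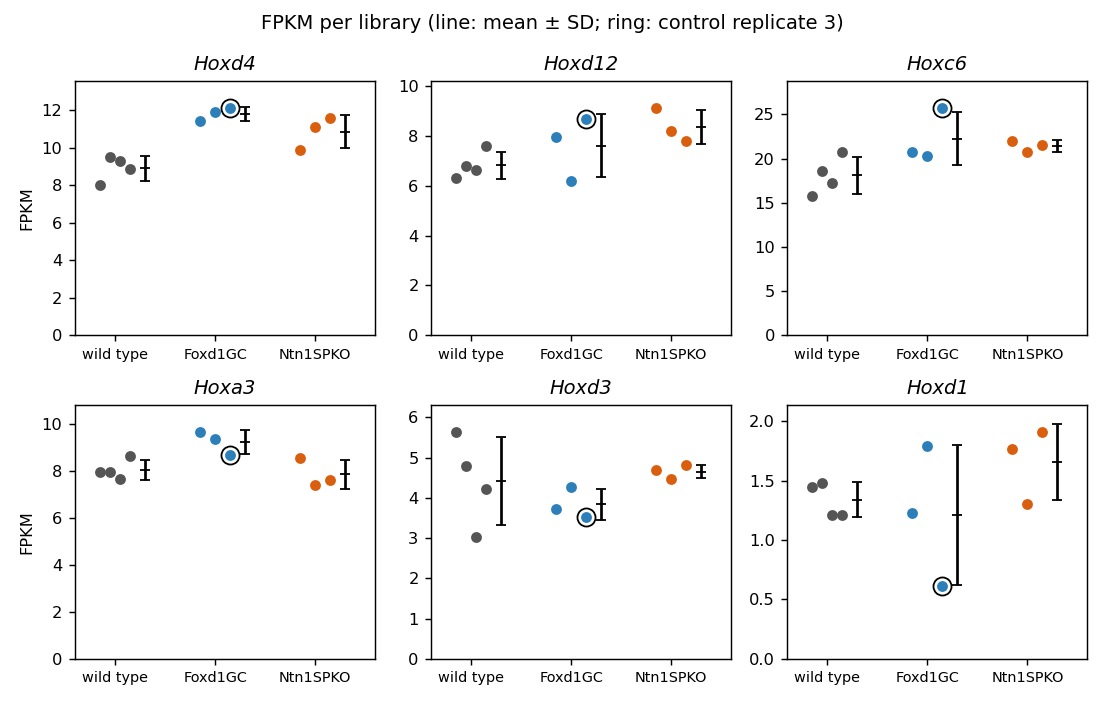
FPKM per library of the Hox genes with an unadjusted p under 0.05 in a comparison (*Hoxd4*, *Hoxd12*, *Hoxc6*, *Hoxa3*) and of *Hoxd3* and *Hoxd1*, which had the largest positive log2 fold changes against controls; black lines give mean ± SD and the ring marks *Foxd1GC* control replicate 3. *Hoxd4* is lower in the 4 wild-type libraries (8 to 9.51 FPKM) than in the other 6 (9.86 to 12.1 FPKM), and the ringed library is the lowest for *Hoxd1*.

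The largest log2 fold changes in the other direction were within the spread. In mutants against wild type they included *Hoxa2* at −0.15 (limma adjusted p = 0.947). In controls against wild type they were *Hoxd8* at −0.24 (limma adjusted p = 0.68) and *Hoxd1* at −0.24 (limma adjusted p = 0.823), both genes that were lowest in control replicate 3, and without it they were −0.03 and 0.15. *Hoxc5* had the second largest positive value in that comparison, 0.34 (limma adjusted p = 0.726), with wild-type libraries between 2.12 and 4.84 FPKM, and it was 0.16 without wild-type replicate 3 and 0.56 without *Foxd1GC* control replicate 2. Cluster medians were −0.03, 0.07, 0.06 and 0.08 for HoxA to HoxD in mutants against wild type (all genes 0.00), and 0.05, −0.06, 0.23 and −0.09 in controls against wild type (all genes −0.01). Without control replicate 3 the latter became 0.00, 0.00, 0.12 and 0.01. With embryo sex as a covariate the *Hoxd4* difference between controls and wild type was also 0.40 (limma adjusted p = 0.436). In mutants against wild type the sex-adjusted values were 0.22 for *Hoxd4*, 0.33 for *Hoxd12* and 0.31 for *Hoxc6*. A single wild-type library, replicate 3, carried Y-linked transcripts, so these values set the mutants against that library alone.

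The genes that act with Hox proteins or on Hox clusters were expressed as well, and none was called in any comparison. Of 9 genes of the Pbx, Meis and Pknox families, homeodomain cofactors that bind DNA with Hox proteins, *Meis2* was the highest, at 223 ± 11.4 FPKM (n = 4) in wild-type kidneys. In this list *Pknox2* was lower in mutants than in controls at an unadjusted p under 0.05 (1 of 9, all genes 10.7% in either direction). Its log2 fold change was −0.31 (limma p = 0.0212, adjusted p = 0.447, exact permutation p = 0.1). The other 8 genes had an unadjusted p above 0.05 in all 3 comparisons. Of 10 partners and targets of Hox11 in the kidney, the highest was *Wt1*, a regulator of the nephron lineage, at 84.4 ± 6.64 FPKM (n = 4). *Sall1* (0.30, limma adjusted p = 0.447, exact permutation p = 0.2) and *Six4* (0.33, limma adjusted p = 0.447, exact permutation p = 0.1) were higher in mutants than in controls at an unadjusted p under 0.05 (2 of 10, all genes 5.49% higher). Both were lowest of the 10 libraries in control replicate 3, at 46.7 and 5.06 FPKM. *Eya1* (0.27, limma adjusted p = 0.628) was higher in mutants than in wild type, also at an unadjusted p under 0.05 (1 of 10, all genes 2.45% higher). The targets *Six2* and *Gdnf* were at 63.1 to 96.4 and 17.6 to 25.5 FPKM, and their unadjusted p was above 0.05 in each comparison.

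Polycomb complexes keep Hox genes silent where they are not used, and trithorax proteins keep them active. Of 15 such genes, *Ezh2*, the methyltransferase of the Polycomb complex, was the highest, at 139.9 ± 7.25 FPKM (n = 4) in wild-type kidneys. In mutants against controls 4 of 15 were higher at an unadjusted p under 0.05 and 0 lower (all genes 5.49% higher), with log2 fold changes of 0.26 for *Bmi1*, 0.20 for *Kdm6b*, 0.15 for *Cbx2* and 0.17 for *Ezh2*, each with a limma adjusted p of 0.447. *Bmi1* and *Ezh2* were lowest of the 10 libraries in control replicate 3, at 51.3 and 124 FPKM, and *Kdm6b* and *Cbx2* in wild-type replicate 3. Against wild type, *Phc1* was higher in mutants (0.26, limma adjusted p = 0.553, exact permutation p = 0.0286) and *Bmi1* lower in controls (−0.32, limma adjusted p = 0.665, exact permutation p = 0.0286), both at an unadjusted p under 0.05. Each was 1 of 15 (all genes 5.76% and 7.06% in either direction). *Bmi1* was at 51.8 ± 0.518 FPKM (n = 3) in controls, 64.6 ± 2.72 FPKM (n = 4) in wild-type and 62.2 ± 5.56 FPKM (n = 3) in mutant kidneys, and was lowest on average in the controls.

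Of 5 regulators that switch Hox genes on along the early axis, *Gdf11* was at 10.8 to 14.7 FPKM, and *Cdx1*, *Cdx2*, *Cdx4* and *T* were at most 0.344 FPKM. Of 13 Evx genes and noncoding RNAs of the clusters, *Evx1* and *Evx2* were listed, at 0.0289 FPKM or less, and the other 11 were not analysed here. Of 9 genes that flank the clusters, 8 were listed and 7 were tested. None of the 7 had an unadjusted p under 0.05 in any of the 3 comparisons, with medians of 0.00, −0.05 and −0.06. *Mtx2*, beside HoxD, was the highest of them at 74.2 ± 12.4 FPKM (n = 4) in wild-type kidneys.

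Sequence that is shared or transcribed from the other strand limits some of these levels. *Hoxd3* and *Hoxd4* share words with *Gm28230*, and *Hoxa2* shares 22% of its coding words with *Gm28308*, which was at 1.41 to 2.99 FPKM. *Hoxc10* shares 13.9% with *Hoxc5*, and *Hoxd11* shares 20.9% with *Gm28309*, a gene on the same strand that was not listed. The antisense RNAs *Hoxa11os* and *Hoxb3os* cover 75.0% of the coding words of *Hoxa11* and 64.9% of those of *Hoxb3*. *Hoxb3os* also covers 52.0% of the coding words of *Hoxb2*. The sources used here do not state whether libraries kept the strand, so reads of these genes and of their antisense partners cannot be told apart.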

How the data were processed

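Bulk RNA-seq of E13.5 whole kidneys was analysed for 4 wild-type, 3 *Foxd1GC* control and 3 *Ntn1SPKO* libraries, grouped by the deposited labels. According to the paper, the authors extracted RNA with a column kit, quantified reads with Salmon against coding sequences of Ensembl GRCm38, and used tximport and DESeq2. The submitters' processing notes also name bcl2fastq 2.17.1.14. The Salmon version and the library strand are not given in the sources used here. The deposited values are FPKM, computed by the authors, and were used as they are. Median-of-ratios size factors were 1 in every library. FPKM carry no counts, so no counting interval is given, and the depth of each library was not estimated here.

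The members and gene lists were chosen with earlier results of these data known. Each comparison used the libraries of its 2 groups, and genes averaging 0.5 FPKM or more in them entered limma 3.58.1 (R 4.3.3, eBayes with an intensity trend) as log2(FPKM + 0.1). P-values were adjusted by Benjamini-Hochberg over all genes, and a call required a 2-fold change or more and an adjusted p below 0.1. Log2 fold changes are on this scale and understate changes of low genes. Exact permutation tests were two-sided. Hox genes named in each comparison were those with an unadjusted p under 0.05 and the 2 with the largest log2 fold change in each direction. By level, groups 9 to 11, the highest gene of each cluster and genes under 0.5 FPKM were named, 1 member is not reported here, and other pairs of paralogs were chosen after their values were seen. Other lists gave the genes with an unadjusted p under 0.05 and the highest gene, and further genes were named for context after their values were seen.

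The alternatives tried changed the pseudocount (1 or 0.01), the filter (none, or 1 FPKM), the scaling (equal summed FPKM, or quantiles) or the trend (none), fitted all 10 libraries together, added the replicate number as a block or embryo sex (a Y-linked sum of at least 10 FPKM) as a covariate, called at any fold, or left out each library. Summing *Hoxd4* and *Gm28230* was added after seeing the data. Same-numbered libraries deviated together little (correlations −0.0471 to 0.0755 over genes), so the numbers were not taken to pair them. The consensus correlation of the replicate block was 0.0621 in mutants against controls, 0.0085 in mutants against wild type and 0.158 in controls against wild type. The fit was also run on simulated data with independent noise for each gene, and the outcome is not reported here.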

Additional observations from a re-analysis of the deposited data

Results flagged for a closer look

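With 4 wild-type libraries, a library can be set apart from the other 3 by the gap to its nearest neighbour divided by the range of the group. Over the 38 Hox genes above 0 in some library and the Hox sum, 39 tests in all, 3 passed the 95% critical value of Dixon's test, where chance passes about 1 in 20. *Hoxb7* was at 36.3 FPKM in wild-type replicate 3 and at 28.9 to 29.9 FPKM in the other 3 (gap over range 0.861). This replicate also had the largest summed FPKM of all libraries. *Hoxd8* was at 31.3 FPKM in wild-type replicate 2 and at 27.2 to 27.3 FPKM in the others (0.969). *Hoxd11* was at 52.8 FPKM in wild-type replicate 1 and at 55.9 to 56.3 FPKM in the others (0.900). These are 3 different libraries.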

How the results depend on the processing

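No Hox gene was called under any of the 56 alternatives over the 3 comparisons, under a rule that did not call *Ntn1* in the mutants in the main fits. None had an adjusted p under 0.1 at any fold in the main fits. The count at any fold was made for the main fits only, not for the other alternatives. With embryo sex as a covariate, the mutants are set against *Foxd1GC* control replicate 2 or wild-type replicate 3 alone. These are the libraries of those groups with Y-linked transcripts. P-values of the mutants from those fits are therefore not given. The count of Hox genes at an unadjusted p under 0.05 ranged from 0 to 5 when a library was left out in mutants against controls, and from 1 to 5 in both other comparisons, while the all-gene share ranged from 4.72% to 23.5%, from 4.13% to 7.35% and from 3.7% to 15.6%. It was 5 against controls without *Foxd1GC* control replicate 2, the control with Y-linked transcripts (*Hoxb7*, *Hoxb8*, *Hoxb9*, *Hoxd3* and *Hoxd9*, 15.2%, all genes 23.5%). It was also 5 for mutants against wild type without wild-type replicate 4 (14.7%, all genes 6.17%) and for controls against wild type without *Foxd1GC* control replicate 2 (14.7%, all genes 15.6%). With the replicate block these counts were 2, 3 and 4 (all genes 12.2%, 5.8% and 9.39%), beside 1, 3 and 2 without it (10.7%, 5.76% and 7.06%), and no call changed. The *Hoxd4* difference between controls and wild type ranged from 0.35 to 0.43 over 19 settings, with a p under 0.05 in all 19 and an adjusted p of 0.238 to 1. Cluster medians were within 1 SD of library medians in 201 of 212 alternatives. The exceptions with embryo sex as a covariate were −0.03 for HoxB, 0.06 for HoxC and 0.00 for HoxD in mutants against controls, and 0.19 for HoxC and 0.14 for HoxD in mutants against wild type. With no filter the HoxC median in controls against wild type was 0.03. Leaving out 1 library, the HoxC median ranged from −0.09 to 0.04 in mutants against controls and from 0.12 to 0.27 in controls against wild type, and the HoxD median from 0.04 to 0.14 in mutants against wild type and from −0.18 to 0.01 in controls against wild type. Of 263 alternatives for named genes, 2 reversed the sign, both for *Hoxd1*, which was −0.12 in mutants against controls with embryo sex as a covariate and ranged from −0.56 to 0.15 in controls against wild type when 1 library was left out, with 0.15 without *Foxd1GC* control replicate 3. The cause was not tested.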
